A study of Mus musculus with 6 samples.

Results

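The genes followed here encode chains of the basement membrane, 4 of type IV collagen (Col4a1, Col4a2, Col4a3 and Col4a4) and 5 of laminins (Lama3, Lamb3, Lama5, Lamb2 and Lamc1), and were compared across the cell states of mouse lung tumors. They were chosen by symbol, as 9 of the 31055 features of a single-cell count matrix, and all 9 were found. The choice was made with earlier results of these data known. The cells were sorted as neoplastic from lung tumors of 6 mice, 20 weeks after intratracheal Lenti-Cre and 2 weeks of treatment, and were profiled by droplet-based 3′ RNA sequencing, in which a unique molecular identifier (UMI) counts each captured transcript once. All mice carried KrasLSL-G12D, which Cre switches on, Lkb1XTR/XTR, a gene trap allele of Lkb1 (Stk11) that Cre inactivates, and Rosa26LSL-tdTomato as a red reporter of recombined cells. The Restored cohort held 3 mice with FLPo-ERT2, a recombinase that tamoxifen activates to remove the trap, all given tamoxifen. The NonRestored cohort held 2 mice without FLPo-ERT2, of which 1 was given tamoxifen and 1 vehicle, and 1 mouse with FLPo-ERT2 given vehicle. The labels name no cell type promoter for Cre or FLPo-ERT2, so neither marks a cell type. No file used here ties a cell to its mouse, so restored and non-restored cells were not compared, and the matrix was treated as 1 sample with no replicates.

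The basement membrane is the thin sheet of matrix on which epithelial and endothelial cells rest. Type IV collagen forms its network from trimers: the chains of Col4a1 and Col4a2 join in a trimer present in nearly all basement membranes, whereas the chains of Col4a3 and Col4a4 join with that of Col4a5 in a trimer of the kidney glomerulus, the inner ear and the alveolus. Inherited loss of that second trimer causes Alport syndrome. Laminins are trimers of an alpha, a beta and a gamma chain that cells bind through integrins and dystroglycan. Lama3 and Lamb3 encode chains of laminin-332, which anchors epithelia at hemidesmosomes, and Lama5 and Lamc1 encode chains of laminin-511 (with Lamb1) and laminin-521 (with Lamb2). In the alveolus, the cuboidal type II (ATII) cell makes surfactant, and the thin type I (ATI) cell covers the gas-exchange surface, where its basement membrane is fused to that of the capillary endothelium.

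Both pairs of collagen chains are arranged head to head. Col4a1 (ENSMUSG00000031502; chromosome 8, 11198423 to 11312826, minus strand, GRCm38) and Col4a2 (ENSMUSG00000031503; 11312805 to 11449287, plus strand) start 21 bases apart, and their annotated spans overlap at these ends. Col4a3 (ENSMUSG00000079465; chromosome 1, 82586921 to 82722059, plus strand) and Col4a4 (ENSMUSG00000067158; 82448423 to 82586849, minus strand) start 72 bases apart. The windows around the start sites are shown because the levels of each pair went together across the cell groups described further on. Each runs 5′ to 3′ on the strand of its gene, from RefSeq on GRCm38.p6, with 300 bases. For Col4a1 (chr8:11312777-11313076, minus strand) and Col4a2 (chr8:11312555-11312854, plus strand), capitals mark the 78 bases that both windows share, read from opposite strands. For Col4a4 (chr1:82586800-82587099, minus strand), capitals mark the stretch from the start site of Col4a4 to the 5′ end of Col4a3.
Col4a1: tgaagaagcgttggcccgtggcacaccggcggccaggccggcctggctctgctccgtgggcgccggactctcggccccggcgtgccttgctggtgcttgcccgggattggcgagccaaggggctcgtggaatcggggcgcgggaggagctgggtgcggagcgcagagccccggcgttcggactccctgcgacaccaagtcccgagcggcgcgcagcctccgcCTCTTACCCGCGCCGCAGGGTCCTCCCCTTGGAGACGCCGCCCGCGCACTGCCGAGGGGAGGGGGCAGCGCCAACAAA
Col4a2: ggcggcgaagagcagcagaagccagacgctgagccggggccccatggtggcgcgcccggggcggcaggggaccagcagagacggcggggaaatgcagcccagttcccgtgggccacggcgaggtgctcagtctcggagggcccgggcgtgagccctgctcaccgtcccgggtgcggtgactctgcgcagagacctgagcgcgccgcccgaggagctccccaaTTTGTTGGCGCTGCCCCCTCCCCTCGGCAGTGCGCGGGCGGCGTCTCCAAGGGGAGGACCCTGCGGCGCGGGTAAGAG
Col4a4: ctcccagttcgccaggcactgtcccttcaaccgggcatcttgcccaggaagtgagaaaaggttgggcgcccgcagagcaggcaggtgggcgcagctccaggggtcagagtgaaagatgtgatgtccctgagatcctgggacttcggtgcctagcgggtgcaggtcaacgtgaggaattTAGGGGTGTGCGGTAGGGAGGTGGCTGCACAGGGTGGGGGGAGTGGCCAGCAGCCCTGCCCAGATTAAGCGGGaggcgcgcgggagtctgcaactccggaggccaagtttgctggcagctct

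The shared stretch of Col4a1 and Col4a2 was 73.1% G and C, the Col4a4 window 63.3%, and the median of all 32851 mouse windows 52.7%. Windows were found for 6 of the 9 genes (Col4a1, Col4a2, Col4a4, Lamb3, Lama5 and Lamb2). The TATA box letters TATAAA, present on either strand in 13.6% of all windows, were in none of them. The GC box letters GGGCGG (35.7% of all windows) were found in the Col4a1, Col4a2 and Lama5 windows, and the CCAAT letters (37.4%) in those of Col4a1 and Col4a2. The letters GGAATG of the TEAD factors (14.7%) were found only in one of the windows of Lamb3. These are matches of letters and not measured binding.

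The laminin genes lie apart. Lama3 (ENSMUSG00000024421) spans chromosome 18, 12333819 to 12583013 on the plus strand. Lamb3 (ENSMUSG00000026639) spans chromosome 1, 193207699 to 193343878 on the plus strand, and Lamc1 (ENSMUSG00000026478) the same chromosome, 153218922 to 153332786 on the minus strand. Lama5 (ENSMUSG00000015647) lies on chromosome 2, 180176373 to 180225859, minus strand, and Lamb2 (ENSMUSG00000052911) on chromosome 9, 108479736 to 108490530, plus strand. The span of Lamb3 overlaps 4930570N18Rik, a gene of the matrix on its own strand, so UMIs of shared sequence may have been lost or misassigned. Genes of the matrix on the other strand overlap Lamb3 (Hsd11b1, G0s2 and Gm37650) and Lama3 (Gm29200). The same holds for Col4a1 (Gm15418 and Col4a2) and Col4a2 (Gm15419 and Col4a1). The part of these overlaps in the counts was not tested.

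Of 16017 cells, 12183 had at least 500 genes and at most 20% mitochondrial UMIs, with a median of 19348 UMIs (671 to 125731). Cells were placed in gates by UMIs per 10000: the ATII gate (Sftpc at least 500, Hopx under 2, Krt8 plus Krt18 under 50) held 6975 cells, the ATI gate (Hopx at least 15, the same keratin limit) 956, the keratin-high gate (Krt8 plus Krt18 at least 50) 1183 and the endothelial gate (Pecam1 and Cdh5 detected) 113. Fibroblast (225 cells with Col1a1, Col1a2 and Col3a1) and myeloid cells (72 with Ptprc, Tyrobp and Fcer1g) served as references, and 2676 cells fell in no gate. Median depth ran from 11796.5 UMIs in the ATI gate to 25296 in myeloid cells. The sort had removed cells with CD31, the product of Pecam1, so the endothelial cells are those the sort left. The labels of the gates were checked with the markers that did not define a gate. Of these, 9 of 9 ATII markers were at 1 UMI per 10000 or more in the ATII gate (sum 597), but 7 also were in the ATI gate (sum 110) and 7 in the keratin-high gate (sum 120). ATI markers reached it for 5 of 7 in the ATI gate (sum 103), 4 in the keratin-high gate (37.9) and 2 in the ATII gate (17.3), keratin-state markers for 4 of 4 in the keratin-high gate (54.0) and 2 in each of the ATII (4.48) and ATI gates (17.9), and endothelial markers for 7 of 7 in the endothelial gate (51.9) and none in the epithelial gates. The ATII markers were widespread, with 6 of 9 at that level in endothelial, fibroblast and myeloid cells. In the endothelial gate, all 7 fibroblast markers together summed to 14.3 UMIs per 10000, against 494 in fibroblasts. Levels below are UMIs per 10000 of the summed UMIs of a gate with exact Poisson 95% intervals, and ratios have exact conditional 95% intervals. The intervals cover counting error only, since cells vary more than such counting does and nothing is known of the spread between mice, and no test was run. Levels of different genes were not ranked against each other, because 3′ counting captures genes unequally.

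Compared with the ATII gate, all 9 genes were higher in the ATI gate, and 6 of 9 were at least 2-fold higher (Col4a1, Col4a2, Col4a3, Col4a4, Lama3 and Lamb2). None was 2-fold lower. Of the 9574 genes with at least 0.05 UMIs per 10000 in all kept cells, 10.3% were at least 2-fold higher and 6.58% at least 2-fold lower in the same comparison. The median log2 ratio was 1.29 over the 9 genes and 0.34 over all genes. Sftpc took 15.5% of the UMIs in the ATII gate and 4.75% in the ATI gate, and its part in the shift of the median gene was not tested. On a scale relative to the median gene, the share of all genes past 2-fold was not computed. There all 9 remained higher, but 4 rather than 6 passed 2-fold, without Col4a1 and Col4a2. The same pair was lost against ATII cells with Lyz2, a lysozyme gene of mature ATII cells, under 100 UMIs per 10000, an alternative chosen after seeing the data.

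**Figure D1:**
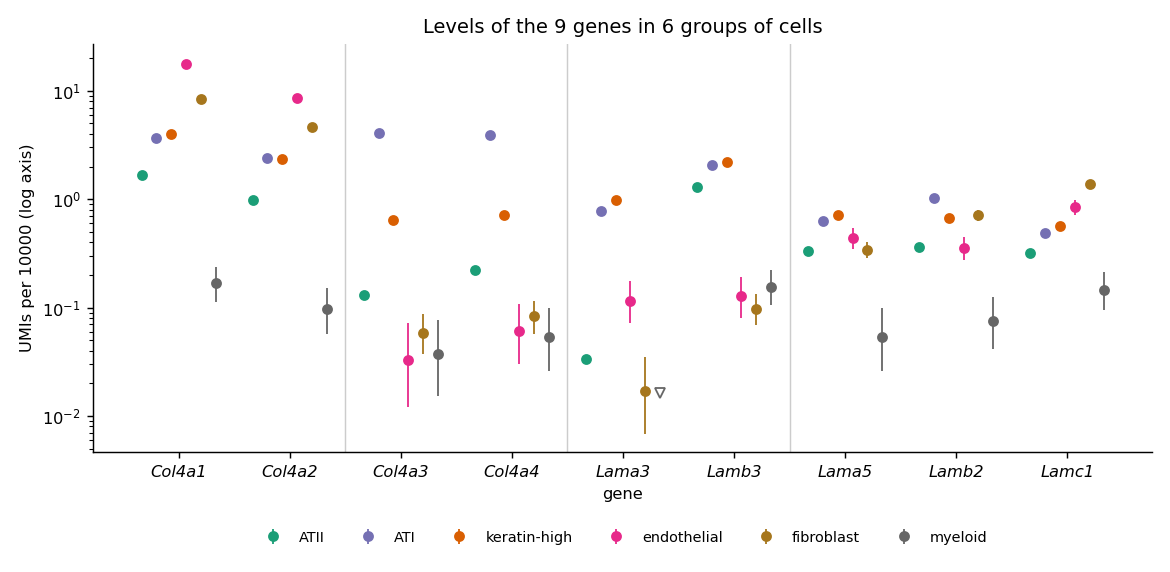
Levels of the 9 genes (UMIs per 10000, log axis) in 6 groups of cells, as points with exact Poisson 95% intervals; the open triangle is the limit of 3 counts for Lama3 in myeloid cells, where no UMI was found. Col4a1 and Col4a2 were highest in endothelial cells, Col4a3 and Col4a4 in the ATI gate, and Lama3 and Lamb3 in the ATI and keratin-high gates.

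The chains of the common collagen network were highest in endothelial cells. Col4a1 was at 1.69 UMIs per 10000 in the ATII gate (1.67 to 1.71), 3.69 in the ATI gate (3.59 to 3.80), 4.02 in the keratin-high gate (3.95 to 4.09), 17.6 in endothelial cells (17.0 to 18.2), 8.44 in fibroblasts and 0.167 in myeloid cells (31 UMIs). Col4a2 followed the same order except that the ATI and keratin-high gates did not differ beyond counting error: 0.975 in the ATII gate, 2.38 in the ATI gate, 2.35 in the keratin-high gate, 8.64 in endothelial cells, 4.68 in fibroblasts and 0.0969 in myeloid cells. The levels of both genes were thus lowest in myeloid cells, next lowest in the ATII gate and highest in the endothelial gate, with no overlap of intervals between these. The ATI over ATII ratio was 2.19 for Col4a1 (2.12 to 2.25) and 2.44 for Col4a2 (2.35 to 2.54).

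The proportion within the pair was lowest in the ATI gate and highest in endothelial cells, with no overlap between these intervals. There were 1.73 Col4a1 UMIs for each Col4a2 UMI in the ATII gate (1.70 to 1.77), 1.55 in the ATI gate (1.48 to 1.62), 1.71 in the keratin-high gate, 1.80 in fibroblasts and 2.04 in endothelial cells (1.92 to 2.17). Over 11 disjoint groups of cells (the gates split by Hopx or Lyz2, with the references), the log2 levels of Col4a1 and Col4a2 had a Pearson r of 0.997. The groups share 1 pooled set of libraries and differ in depth, so this is a description of these groups.

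The chains of the alveolar and glomerular network had a steeper contrast. Col4a3 was at 0.130 UMIs per 10000 in the ATII gate (0.125 to 0.136), 4.04 in the ATI gate (3.94 to 4.15) and 0.644 in the keratin-high gate (0.616 to 0.673), whereas endothelial cells had 0.0332 (6 UMIs), fibroblasts 0.0586 (24 UMIs) and myeloid cells 0.0377 (7 UMIs). Col4a4 was at 0.222, 3.93 and 0.722 in the same 3 epithelial gates, and at 0.0608 (11 UMIs), 0.0830 (34 UMIs) and 0.0538 (10 UMIs) in the 3 other cell types. The ATI gate was thus the highest for both genes, the keratin-high gate came next, and endothelial, fibroblast and myeloid cells did not differ beyond counting error. The ATI over ATII ratio was 31.1 for Col4a3 (29.6 to 32.7), above 99.8% of all genes tested, and 17.7 for Col4a4 (17.0 to 18.5). Proportions within this pair ranged more widely, at 0.587 Col4a3 UMIs for each Col4a4 UMI in the ATII gate (0.556 to 0.620), 0.892 in the keratin-high gate (0.839 to 0.948) and 1.03 in the ATI gate (0.992 to 1.07). The log2 levels of the pair over the 11 groups had a Pearson r of 0.991, while the r of Col4a3 with Col4a1 was 0.157.

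Free RNA puts UMIs of abundant transcripts into droplets of other cells, so the low levels were read against cells that should lack these genes. In myeloid cells Sftpc was found at 6.35% of its ATII level, Col4a3 at 29.0% and Col4a4 at 24.3% of theirs. After each cell was thinned to 5000 UMIs, which left out 1099 of the 12183 kept cells, 6.78% of ATII cells had a Col4a3 UMI (exact binomial 95% interval 6.19 to 7.40; 22.5% before thinning), compared with 75.4% of ATI cells (72.3 to 78.3; 88.2% before) and 25.4% of keratin-high cells (22.9 to 28.1; 49.0% before). No Col4a3 UMI was left in 70 myeloid cells, which allows a share of up to 4.29% (5.13% by the exact binomial interval; 4.17% of the cells had one before thinning), and 3.61% of 83 endothelial cells had 1 (0.752 to 10.2). The Col4a3 share of the ATII gate was above both myeloid limits and the fibroblast interval (0.583 to 5.36) but within the wider endothelial interval. The summed ATII level of 0.130 was above the upper limits of endothelial cells (0.0722), fibroblasts (0.0872) and myeloid cells (0.0777). Col4a4 UMIs were found in 11.3% of ATII (10.5 to 12.0), 78.8% of ATI and 30.2% of keratin-high cells, against 1.43% of myeloid (0.0362 to 7.70) and 1.20% of endothelial cells (0.0305 to 6.53), so the ATII share of Col4a4 was above both references.

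Cells with both chains of a pair were counted in the same thinned cells. Both Col4a3 and Col4a4 were detected in 64.0% of ATI cells, where 59.4% would be found if the detections were unrelated, and in 14.1% of keratin-high cells, where that value was 7.67%. In the ATII gate both were seen in 1.28% of cells against 0.763%. Col4a1 and Col4a2 were detected together in 23.0% of ATII, 52.8% of ATI, 55.0% of keratin-high and 89.2% of endothelial cells, where 20.9%, 50.9%, 52.9% and 89.2% would be found if unrelated. The cells differ in what they express as well as in chance capture, so these shares are a description of the gates.

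**Figure D2:**
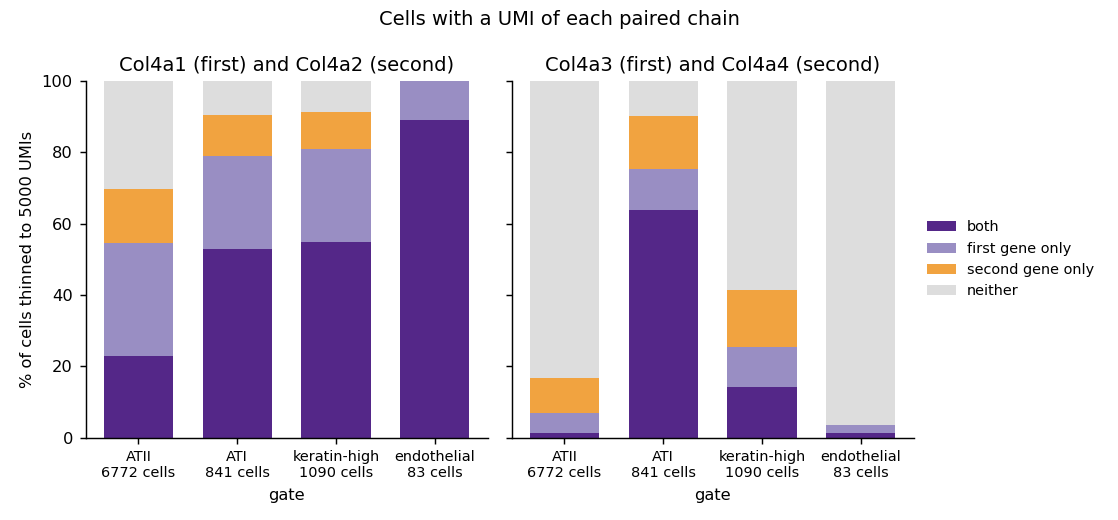
Stacked shares of cells (%, thinned to 5000 UMIs) with UMIs of both chains of a collagen pair, of only one, or of neither, in 4 gates. Both Col4a3 and Col4a4 were found in 64.0% of ATI cells but 14.1% of keratin-high and 1.28% of ATII cells, whereas Col4a1 and Col4a2 were found together in 52.8% and 55.0% of ATI and keratin-high cells.

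Of the laminin-332 chains, Lama3 and Lamb3 were distributed differently. Lama3, the alpha chain, was at 0.0334 UMIs per 10000 in the ATII gate (0.0306 to 0.0363), 0.774 in the ATI gate (0.728 to 0.823) and 0.973 in the keratin-high gate (0.939 to 1.01), the highest of all gates. It was at 0.116 in endothelial cells (21 UMIs in 13 cells), 0.0171 in fibroblasts (7 UMIs) and 0 of 1857308 UMIs in myeloid cells, which allows up to 0.0162. The ratio to the ATII gate was 23.2 for the ATI gate (20.9 to 25.8) and 29.2 for the keratin-high gate (26.6 to 32.0). The ATII level lay within the fibroblast interval (0.00687 to 0.0352), and 1.74% of thinned ATII cells had a Lama3 UMI, compared with 1.06% of fibroblasts (0.129 to 3.79). It was above the myeloid limit, so the ATII level exceeded one of these references and not the other, and both ratios are against this low level.

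Lamb3, the beta chain, was instead present in all epithelial gates, at 1.30 in the ATII gate, 2.09 in the ATI gate and 2.18 in the keratin-high gate. Endothelial cells had 0.127 (23 UMIs), fibroblasts 0.0977 (40 UMIs) and myeloid cells 0.156 (29 UMIs), or 12.0% of the ATII level. Without the 4 myeloid cells also in the ATII gate, Lamb3 was at 0.105 (18 UMIs) in myeloid cells. Its ATI over ATII ratio of 1.60 (1.54 to 1.67) was below 2-fold. Thinned shares of cells were 46.8% in ATII, 63.3% in ATI and 64.3% in keratin-high cells, against 10.0% in myeloid cells (4.12 to 19.5). For each Lamb3 UMI there were 0.0257 Lama3 UMIs in the ATII gate (0.0235 to 0.0279), 0.371 in the ATI gate (0.345 to 0.399) and 0.446 in the keratin-high gate (0.427 to 0.466). UMIs of both genes were found in 0.916% of thinned ATII cells, 18.9% of ATI cells and 23.1% of keratin-high cells. Across the 11 groups, the r of Lama3 with Lamb3 was 0.738.

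Lama5, Lamb2 and Lamc1, the members that encode chains of laminin-511 or laminin-521, were found in all 4 gates. Lama5, the alpha chain, was at 0.329 in the ATII gate (0.321 to 0.338), 0.629 in the ATI gate (0.588 to 0.674), 0.713 in the keratin-high gate (0.684 to 0.744) and 0.437 in endothelial cells (0.346 to 0.544). Lamb2, a beta chain, was the only laminin member that was highest in the ATI gate among all gates and reference cells, at 1.03 (0.979 to 1.09), against 0.364 in the ATII gate, 0.678 in the keratin-high gate, 0.354 in endothelial cells and 0.715 in fibroblasts. Within the keratin-high gate, however, cells with Hopx at least 15 had a Lamb2 level of 1.27 (1.12 to 1.43). Lamc1, the gamma chain shared by most laminins, was highest in fibroblasts (1.37) and endothelial cells (0.846), with 0.316 in the ATII, 0.492 in the ATI and 0.566 in the keratin-high gate. The ATI over ATII ratio was 2.84 for Lamb2 (2.67 to 3.01), 1.91 for Lama5 (1.78 to 2.06) and 1.56 for Lamc1 (1.43 to 1.69). Lamc1 in myeloid cells was at 46.0% of its ATII level, so its low epithelial levels were the closest to that reference. Without the 4 myeloid cells also in the ATII gate, the myeloid level of Lamc1 was 0.134 (23 UMIs) in place of 0.145.

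Lamb1, the alternative beta chain, was distributed differently from Lamb2. Lamb2 had 61.9 UMIs for each Lamb1 UMI in the ATII gate (50.5 to 76.6) and 10.5 in the keratin-high gate (9.07 to 12.2), but 0.335 in endothelial cells (0.248 to 0.447) and 0.323 in fibroblasts. In the ATI gate only 3 Lamb1 UMIs were counted. Lamb1 itself was at 1.06 in endothelial cells and 2.22 in fibroblasts, but at 0.00588 in the ATII and 0.0646 in the keratin-high gate.

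The keratin-high gate resembled the ATI gate for most chains and differed for the second collagen network. Against the ATII gate, 6 of 9 genes were at least 2-fold higher (Col4a1, Col4a2, Col4a3, Col4a4, Lama3 and Lama5) and none was 2-fold lower, where 12.6% of all genes were called higher and 5.94% lower. The median log2 ratio was 1.25 against 0.35 for all genes, and relative to the median gene 3 passed 2-fold, Col4a3, Col4a4 and Lama3. The share of all genes on that scale was not computed. Against the ATI gate, none of the 9 was 2-fold higher and 2 were 2-fold lower, with 5.94% and 4.25% of all genes called in these directions. Col4a3 was 6.28-fold lower (5.96 to 6.62) and Col4a4 5.44-fold lower (5.17 to 5.72) in keratin-high cells than in ATI cells. The ratio was 0.988 for Col4a2 (0.947 to 1.03), 1.05 for Lamb3, 1.09 for Col4a1 (1.05 to 1.13), 1.13 for Lama5, 1.15 for Lamc1 and 1.26 for Lama3 (1.17 to 1.35), and Lamb2 was 1.52-fold lower (1.42 to 1.63).

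Splitting the keratin-high gate by Hopx, a gene used in the ATI gate, gave 127 cells with Hopx at least 15 and 1055 with less. The 1 cell also in the endothelial gate was left out. Col4a3 was at 2.59 in the former and 0.498 in the latter, a ratio of 5.20 (4.70 to 5.74), and Col4a4 at 2.56 and 0.584, a ratio of 4.39 (3.98 to 4.84). Lamb2 was at 1.27 and 0.633 (ratio 2.01, 1.76 to 2.28). The remaining 6 genes had ratios between 0.934 (Lama5) and 1.17 (Lama3). Thus in keratin-high cells with little Hopx, Lama3 was at 0.961 and Col4a3 at 0.498, whereas ATI cells with Hopx from 15 to 40 had less Lama3, 0.708, and more Col4a3, 3.15.

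**Figure D3:**
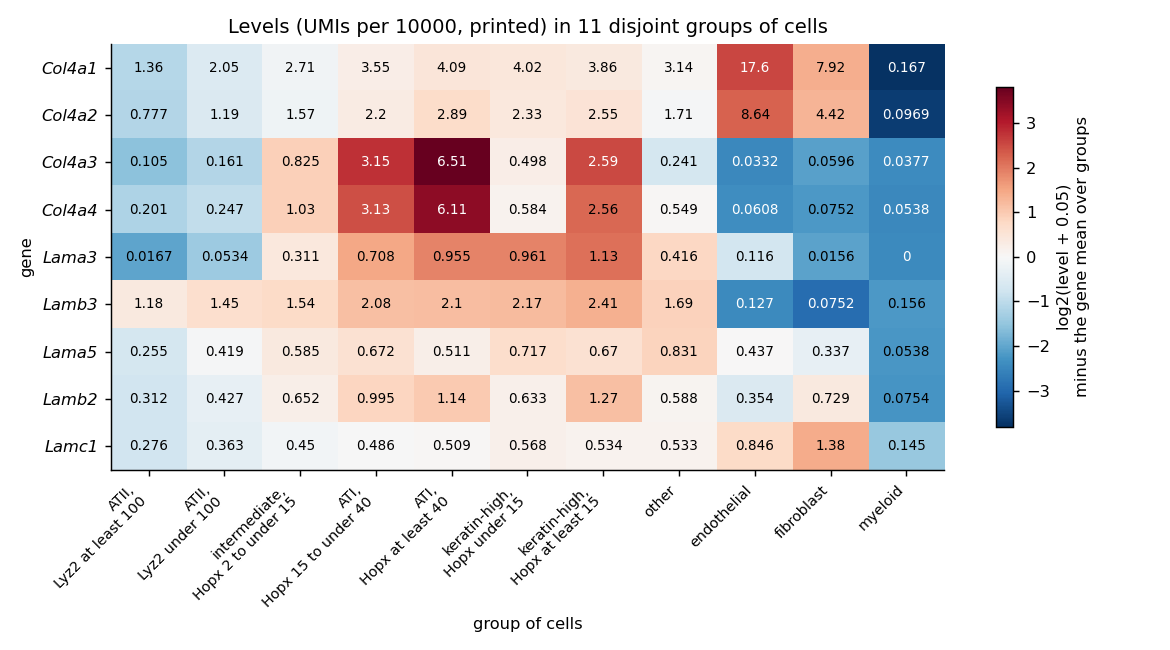
Levels in 11 disjoint groups of cells (columns) for each gene (rows); the printed numbers are UMIs per 10000 and colour is log2(level + 0.05) minus the mean of the gene over the groups. Col4a3 and Col4a4 were highest in ATI cells with Hopx at least 40 (6.51 and 6.11), and Lama3 in keratin-high cells with Hopx at least 15 (1.13). That Lama3 interval (0.990 to 1.28) overlaps those of keratin-high cells with less Hopx (0.925 to 0.997) and ATI cells with Hopx at least 40 (0.856 to 1.06).

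Levels were then followed along Hopx itself, in 9 bins of cells with low keratins that were in none of the endothelial, fibroblast and myeloid groups, which held from 5722 cells (Hopx under 0.5) to 151 cells (Hopx at least 60). Col4a3 was higher in every successive bin, from 0.106 (0.100 to 0.112) to 7.78 (7.34 to 8.24), and Col4a4 from 0.203 to 7.39. Lama3 went from 0.0438 to 1.07, with 0.427 at Hopx from 5 to 10 and 0.568 from 10 to 15, below the limit of the ATI gate. Its intervals overlapped between neighbouring bins from 10 to 15 (0.503 to 0.638) and 15 to 25 (0.575 to 0.707), and between both neighbouring pairs of the last 3 bins. In the same bin of 10 to 15, Col4a3 was at 1.65 (1.54 to 1.77). Over these bins Sftpc was between 1493 in the lowest and 159 in the highest, and Ager, an ATI marker, between 7.43 and 86.7. Cells of other epithelial types were not removed: 4 markers of club and basal cells summed to 7.64 in the lowest bin, 13.7 in the next, 3.95 at Hopx from 2 to 5, 0.707 from 5 to 10 and 3.75 from 10 to 15, and to between 0.214 and 0.503 in the 4 bins from 15 up. The 3 markers of ciliated cells summed to 0.270 in the lowest bin, 2.71 at Hopx from 5 to 10 and between 1.27 and 1.54 in the 5 bins from 10 up. These sums rested mostly on a single marker, which was 1.95 of the 2.71. From Hopx 25 up a single marker was the whole sum and the others were at 0. The part of club, basal or ciliated cells in the levels was not tested.

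Other chains had a shorter range along Hopx. Col4a1 went from 1.66 to 3.50 by the bin of 10 to 15, stayed at 3.55 in the next 2 bins and reached 4.44 in the last, and Col4a2 went from 0.955 to 3.24. Lamb3 was at 1.33 in the lowest bin, 2.19 (2.05 to 2.34) at Hopx from 25 to 40 and 2.10 (1.87 to 2.34) in the last bin, so the upper bins did not differ beyond counting error. Lama5 was at 0.350 in the lowest bin, 0.675 (0.610 to 0.746) at 15 to 25, 0.464 (0.375 to 0.567) at 40 to 60 and 0.576 (0.461 to 0.711) in the last bin, which overlapped both. Within the ATI gate, cells with Hopx at least 40 had 2.07-fold the Col4a3 level of those from 15 to 40 (1.96 to 2.18) and 1.95-fold the Col4a4 level, but a Lama5 level at a ratio of 0.760 (0.642 to 0.897). The median UMI total was 9411 in the 339 cells with Hopx at least 40 and 13985 in the 617 others, and the part of depth in these ratios was not tested.

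**Figure D4:**
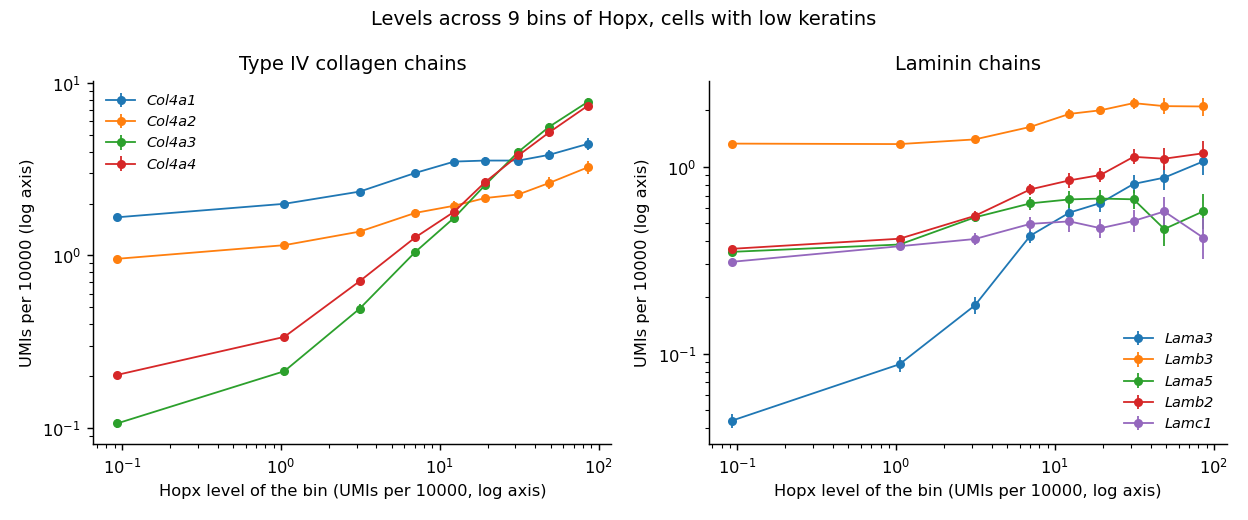
Levels (UMIs per 10000, log axis) against the mean Hopx level of 9 bins of cells (log axis), with exact Poisson 95% intervals; collagen chains on the left and laminin chains on the right. Col4a3 (0.106 to 7.78) and Col4a4 are higher in every successive bin with no overlap of intervals, whereas those of Lama3 (0.0438 to 1.07) overlap between some upper bins.

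The ATII gate was not uniform either, split here without the cells that were also in the endothelial, fibroblast or myeloid groups. Cells with Lyz2 under 100 (3540 cells) had 3.20-fold the Lama3 level (2.64 to 3.90) of those with at least 100 (3423 cells), at 0.0534 against 0.0167. The lower of these values was close to the fibroblast level (0.0171) and the myeloid limit (0.0162), so ratios to it are against background, whereas the higher was above the fibroblast interval. Col4a1 was at 2.05 and 1.36 (ratio 1.51, 1.47 to 1.54), Col4a2 at 1.19 and 0.777 (1.54) and Lama5 at 0.419 and 0.255 (1.64, 1.55 to 1.73), while the log2 ratio of the median gene was 0.21. The smallest ratios were those of Lamb3, 1.22, and Col4a4, 1.23. Cells with Hopx between the gates, from 2 to under 15 (1768 cells), already had 0.311 of Lama3, 0.825 of Col4a3 and 1.03 of Col4a4, which was 18.6-fold (15.6 to 22.3), 7.87-fold (7.30 to 8.48) and 5.15-fold (4.86 to 5.45) the level of ATII cells with Lyz2 at least 100.

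Endothelial cells had the highest levels of Col4a1 and Col4a2, while their Col4a3 and Col4a4 did not differ from those of myeloid cells beyond counting error. Compared with the ATI gate, 2 of 9 genes were at least 2-fold higher, Col4a1 (4.77-fold, 4.56 to 4.99) and Col4a2 (3.63-fold, 3.41 to 3.86), and 5 were at least 2-fold lower, Col4a3, Col4a4, Lama3, Lamb3 and Lamb2, where 13.9% and 15.8% of all genes were called. Col4a3 was 122-fold lower (56.0 to 332) and Col4a4 64.6-fold lower (36.1 to 129) than in ATI cells, on 6 and 11 UMIs. Compared with the ATII gate, 4 were higher (Col4a1, Col4a2, Lama3 and Lamc1) and 3 lower (Col4a3, Col4a4 and Lamb3), where 21.9% and 14.3% of all genes were called. The median log2 ratio of the 9 genes was 0.41 against 0.36 for all genes. Col4a1 was 10.4-fold (10.0 to 10.8) and Col4a2 8.87-fold (8.41 to 9.34) higher than in ATII cells, and Lamc1 2.67-fold (2.26 to 3.14). Without the 50 most abundant genes, Lamc1 had a log2 ratio of 0.94 and was no longer called, which left 3 higher genes.

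The low epithelial counts in this gate rested on few cells. Of the 113 cells, 5 were also in the ATII gate, 1 in the keratin-high gate and 4 in the fibroblast gate. Without the 6 of the epithelial gates, 107 cells remained, in which Lamb3 was at 0.0195 (3 UMIs) in place of 0.127, Col4a4 at 0.0130 (2 UMIs) and Col4a3 at 0.0195 (3 UMIs). A single cell held 11 of the 23 Lamb3 UMIs. Lama3 was still at 0.0908 (14 UMIs, 0.0497 to 0.152) without them, above the ATII level of 0.0334, and Col4a1 was at 18.5. Without the 4 cells of the fibroblast gate, the fibroblast markers summed to 1.41 in place of 14.3, while Col4a1 was at 17.7 (17.1 to 18.4), the Col4a2 interval was 8.15 to 9.07 and Lamc1 was at 0.809 (0.675 to 0.963). Lamb3 was then at 0.0764 (12 UMIs) in place of 0.127 and Col4a4 at 0.0382 (6 UMIs). In the ATII, ATI and keratin-high gates, the 7 fibroblast markers summed to 0.316, 0.100 and 0.106 and the 9 endothelial markers to 0.185, 0.0997 and 0.0809. Egfl7 alone was 0.139 of the ATII endothelial sum, and of the 6 endothelial markers tested between the ATI and ATII gates, 2 were at least 2-fold higher in ATI cells, Ramp2 (2.09-fold, 1.37 to 3.09) and Cldn5 (2.53-fold, 1.31 to 4.54), and 2 were lower. Of the 6 fibroblast markers tested, none was higher and 4 were lower. Of all genes, 10.3% were at least 2-fold higher and 6.58% at least 2-fold lower in the ATI than in the ATII gate. The part of fibroblast or endothelial RNA in the epithelial levels was not tested.

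Other chains and components of the basement membrane were taken from lists made by function, with earlier results of these data known. Of 7 partner chains, 2 were above the minimum level over all kept cells, Col4a5 and Lamb1. Lamb1 passed at 0.0555, and of its 1428 UMIs fibroblasts held 908 and endothelial cells 191. It was under the minimum in the ATII (0.00588) and ATI gates (0.00225). In the ATI gate, Col4a5, the third chain of the second network, was 5.99-fold higher than in the ATII gate, at 0.551 against 0.0919. Lamb1, on 3 UMIs there, had a ratio of 0.382 (0.0775 to 1.15), past 2-fold in the lower direction with an interval that holds no difference. In keratin-high cells both were higher, with 3.55-fold for Col4a5 and 11-fold for Lamb1. Of all genes, 10.3% were at least 2-fold higher and 6.58% lower in the ATI than in the ATII gate. These shares were 12.6% and 5.94% for the keratin-high gate. There were 7.34 Col4a3 UMIs for each Col4a5 UMI in the ATI gate (6.80 to 7.94) and 1.41 in the ATII gate (1.32 to 1.51), so Col4a5 differed less than Col4a3. Of the chains below the minimum, Lama4 was at 0.580 in endothelial cells and 0.838 in fibroblasts but at 0 in the ATI gate, and Lama2 was at 1.38 in fibroblasts.

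Of 13 other basement membrane genes, 7 were tested, and in the ATI gate 6 were at least 2-fold higher and 1 lower than in the ATII gate, where 10.3% and 6.58% of all genes were. Sparc, a collagen-binding glycoprotein, was at 19.6 against 3.0 (6.52-fold), Agrn, a heparan sulfate proteoglycan, 5.97-fold, Hspg2 (perlecan) 4.13-fold, Npnt, an integrin ligand, 2.82-fold and Ntn4, a netrin that binds laminin, 14.9-fold higher. Tinagl1 was also called. Col18a1 was the exception, at 0.0862 in the ATI and 0.227 in the ATII gate. In keratin-high cells 5 were higher and none lower (12.6% and 5.94% of all genes), and Npnt (1.07-fold) and Col18a1 (0.994) were near the ATII level. Nid1 and Nid2, the nidogens that link laminin to type IV collagen, were found at 0 UMIs in the ATI gate, while endothelial cells had 1.20 and 0.442, and fibroblasts 1.74 and 0.117.

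The genes that process collagen differed less. Of 13, 11 were tested, and in the ATI gate 2 were at least 2-fold higher and none lower than in the ATII gate, a share near the 10.3% and 6.58% of all genes. The 2 were Serpinh1, the collagen chaperone HSP47, at 2.59 against 1.09 (2.39-fold), and Plod1, a lysyl hydroxylase, at 0.358 against 0.0898 (3.99-fold). The prolyl hydroxylase subunits P4ha1 (0.901), P4ha2 (1.30) and P4hb (0.860) had ratios near 1. In keratin-high cells none of the 11 passed 2-fold (12.6% of all genes were higher and 5.94% lower), with Serpinh1 at a ratio of 1.98. Pxdn, the peroxidase that cross-links type IV collagen, was below the minimum level, with 168 UMIs in the ATI gate (0.126) and 29 in the ATII gate (0.00180).

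Among 10 receptors, 8 were tested, and 5 were higher and 1 lower in each of the ATI and keratin-high gates than in the ATII gate, but they were not all the same genes. Of all genes, 10.3% and 12.6% were higher and 6.58% and 5.94% lower in these comparisons. Ddr1, a collagen receptor kinase, was 4.36-fold and 3.97-fold higher, Itga3, which pairs with Itgb1 to bind laminin-332 and laminin-511, 2.80-fold and 4.80-fold, and Itgb1 2.09-fold and 2.55-fold. Dag1 (dystroglycan, 2.56-fold) and Bcam (a receptor of Lama5, 2.24-fold) passed in the ATI gate, with 0.756 and 1.46 in keratin-high cells. Itga2, a collagen receptor chain, was at 2.00 in keratin-high cells, 0.0216 in the ATII and 0.0172 in the ATI gate (92.4-fold over ATII), and Itga6 was 2.73-fold higher in keratin-high cells but at a ratio of 0.583 in the ATI gate. Itga1 was the gene lower in both. Of 7 proteases and inhibitors, 4 were tested. Mmp14, a membrane-bound collagenase, was 3.92-fold and 3.57-fold higher in the ATI and keratin-high gates, Timp2 2.21-fold and 2.37-fold, and Timp3, an inhibitor held in the matrix, 4.11-fold and 1.44-fold. Timp1 had 3 UMIs in the ATI gate (ratio 0.403, 0.0817 to 1.22) and 28.4-fold the ATII level in keratin-high cells. Mmp7 was at 0 in all gates.

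Between the keratin-high and ATI gates the same tested genes split both ways: 1 partner chain was at least 2-fold higher and none lower, 1 other basement membrane gene was higher and 2 lower, no processing gene was higher and 1 (Plod1) lower, 2 receptors were higher and 1 lower, and 1 protease or inhibitor was higher and 1 lower, where 5.94% of all genes were higher and 4.25% lower. The partner chain was Lamb1, with 3 UMIs in the ATI gate. Endothelial cells had 41.0 UMIs per 10000 of Sparc, 4.06 of Serpinh1 and 4.15 of Itga6, and 5 of the 7 tested basement membrane genes and 6 of the 11 processing genes were at least 2-fold above the ATII gate there, where 21.9% of all genes were.

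**Figure D5:**
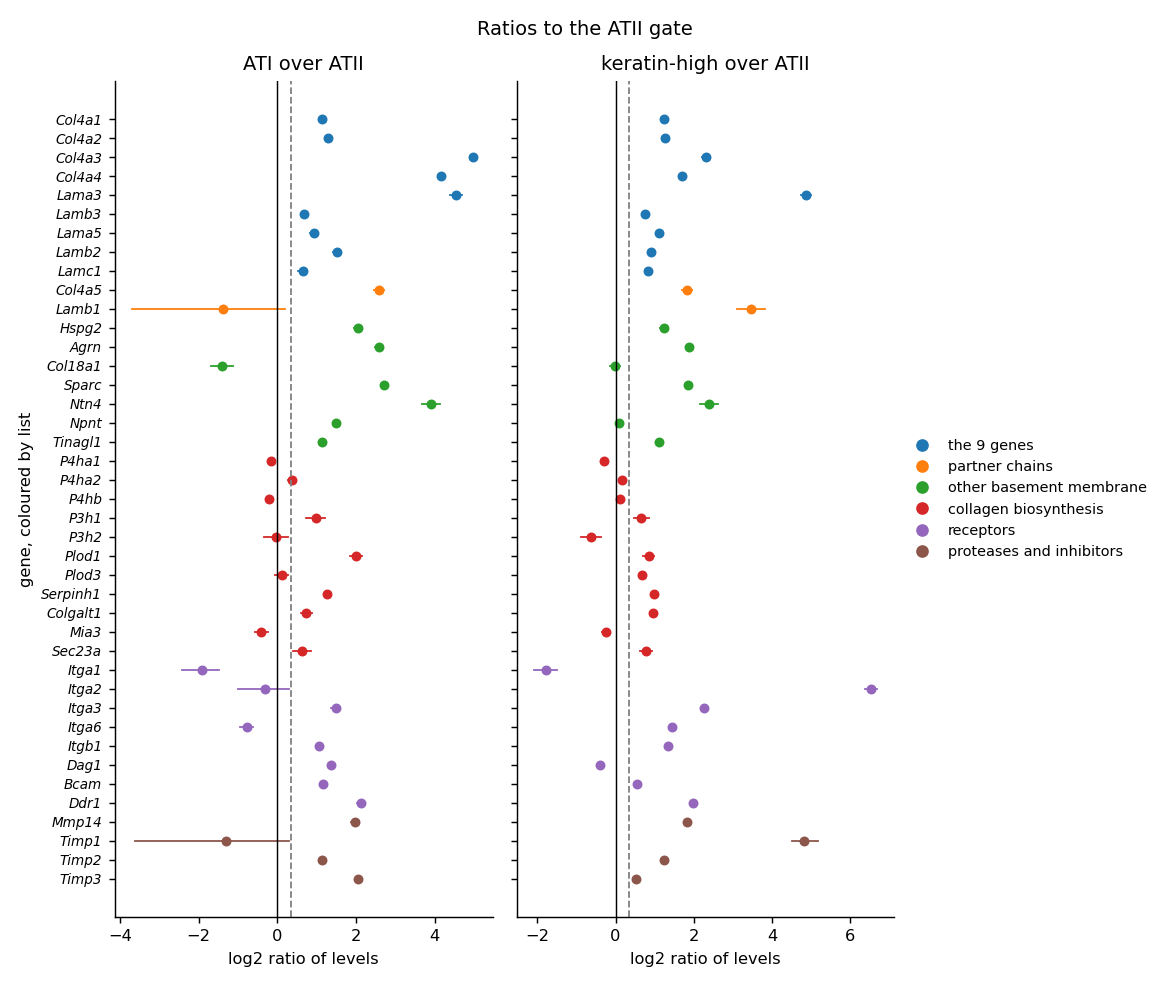
log2 ratios of the ATI gate (left) and the keratin-high gate (right) to the ATII gate, with exact conditional 95% intervals, for the 9 genes and the tested genes of 5 lists, by colour; the solid line is no difference and the dashed line the median of all 9574 genes. All 9 genes lie right of the dashed line in both panels, and Itga2 lies left of 0 in the left panel and furthest right in the right panel.

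For each set of chains, the 3 other genes with the most similar pattern over the 11 groups were identified among 5638 genes with at least 0.2 UMIs per 10000. For Col4a1 plus Col4a2 these were Gna11 (r = 0.988), Btbd2 (0.981) and Tnks1bp1 (0.978). For Col4a3 plus Col4a4 they were Hs2st1 (0.984), Urod (0.983) and Sec14l3 (0.981). Of these, Sec14l3 was at 6.45 in ATI cells with Hopx at least 40 and 0.169 in ATII cells with Lyz2 at least 100, while Urod was between 0.384 and 0.553 in all groups, so a high r does not mean a range of the same size. Hs2st1, a heparan sulfate sulfotransferase, was between 0.307 and 7.46. Marveld3 (0.996), Cobl (0.995) and Rab25 (0.995) were most like Lama3 plus Lamb3, and Lzts2 (0.987), Wasl (0.977) and Nr2f6 (0.975) most like the sum of Lama5, Lamb2 and Lamc1.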

How the data were processed

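The authors deposited 1 matrix of counts, whole UMI counts per gene and cell, not normalized, that pools the 10x 3′ v3 libraries of all 6 mice; per the file headers it was written by Cell Ranger 3.0.2, and the submitters' processing notes name the build mm10. The release of the gene annotation is not given in the sources used here. Dissociation used collagenase IV, dispase and trypsin, which act on these proteins; RNA was measured here. The sort removed cells with CD45, CD31, F4/80 or Ter119.

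The 9 genes, the gates and the gene lists were chosen with earlier results of these data known. Cells with at least 500 genes and at most 20% mitochondrial UMIs were kept, which left out 2081 and 1753 of 16017 cells. Counts were summed over each gate and divided by the summed UMIs, so deep cells weigh more. Genes with at least 0.05 UMIs per 10000 were compared, and 2-fold was the threshold. A count of 0 was given a limit of 3 counts. The genes named are the 9 members, the genes of 5 lists and the 3 genes most like each of 4 sums of members by Pearson r of log2(level + 0.05). Ratios and intervals were tested on simulated data. Gates could overlap by up to 5 cells. Doublets were kept, since Scrublet (scanpy 1.11.5) called 0 of 12183 cells and so had not worked as a caller. Positions came from GENCODE M21 on GRCm38, which matched 31011 of 31055 features, and sequences from RefSeq on GRCm38.p6. The software was numpy 2.4.6 and scipy 1.17.1 in Python 3.11.15, with matplotlib 3.10.9 for figures. Since no cell could be given to a mouse, the Restored and NonRestored cohorts were not compared.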

Additional observations from a re-analysis of the deposited data

How the results depend on the processing

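Of the 45 ratios (9 genes in 5 comparisons), 41 kept their direction under all 19 alternatives that gave a ratio, and all 28 ratios past 2-fold did. The exceptions were Col4a2 and Lamb3 between the keratin-high and ATI gates (log2 from -0.18 to 0.23 and from -0.05 to 0.31) and Lama5 and Lamb2 between the endothelial and ATII gates (from -0.07 to 0.55 and from -0.52 to 0.04). For the counts that follow, the share of all genes was not recomputed under the alternatives. The count of 6 genes higher in the ATI than the ATII gate was 3 at a threshold of 3-fold, 5 without the 50 most abundant genes, and 4 relative to the median gene and against ATII cells with Lyz2 under 100. The count of 6 higher in the keratin-high than the ATII gate was 3 at 3-fold, 3 without the 50 most abundant genes, 3 relative to the median gene and 3 against ATII cells with Lyz2 under 100, an alternative chosen after seeing the data; the cause was not tested. Under that last alternative the log2 ratio of Lama3 to the ATII gate went from 4.54 to 3.86 in the ATI and from 4.87 to 4.19 in the keratin-high gate. The endothelial ratios of Col4a3, Col4a4 and Lamb3 moved most: against the ATI gate, the log2 ratio of Lamb3 was between -6.74 and -3.88 and that of Col4a4 between -8.28 and -5.95. Leaving out the endothelial cells of the fibroblast gate, also chosen after seeing the data, gave values within these ranges. No paired analysis was possible because cells carry no mouse, and for the same reason no mouse could be left out in turn. Col4a3, Col4a4 and Lamb3 in endothelial cells rested on 6, 11 and 23 UMIs, and Lama3 in the ATII gate lay within the fibroblast interval.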
